A study of Homo sapiens with 4 samples.

Results

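Collagen genes were described across 2 human breast cancer cell lines, MDA-MB231 and Hs578T, both labelled basal-like, each grown as control cells and as cells expressing FBP1. FBP1 encodes fructose-1,6-bisphosphatase, an enzyme of gluconeogenesis. The 4 groups were MDA-MB231 control, MDA-MB231 expressing FBP1, Hs578T control and Hs578T expressing FBP1, with 1 Affymetrix array each. All groups share the same serum-containing medium and were harvested in log-phase growth. The FBP1 cells came from selected stable clones, and the number of clones and the content of the control cells are not given in the sources used here. Members were all genes whose symbol in the platform annotation consists of COL, a number, A and a number. This gave 43 genes of 27 collagen types among 18417 genes. One further symbol begins in this way and goes on, the antisense RNA COL18A1-AS1, and it was kept out of the counts.

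Collagens are matrix proteins in which polypeptide chains wind around each other into a helix built on a Gly-X-Y repeat. Fibrillar types such as I, III and V form the tension-bearing fibrils of stroma, type IV forms the network of basement membranes, and type VI forms beaded filaments around cells. Fibril-associated (FACIT) types decorate fibrils, and transmembrane types sit in the cell surface. Chains are hydroxylated and folded in the endoplasmic reticulum, trimmed outside the cell and crosslinked by lysyl oxidases. Carcinoma cells of epithelial character are generally poor producers of fibrillar collagen, while mesenchymal cells are strong ones.

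Promoter sequences are shown for the genes on which the type IV, type VI and FACIT results turn, and for the members that stood apart. They come from RefSeq (GRCh38.p14), where 31 of the 43 genes matched an entry, among them 7 of the 14 genes that were higher in Hs578T. COL4A1 and COL4A2 lie head to head on chromosome 13 with 126 bases between their starts, and that whole interval is printed. COL4A3 and COL4A4 (418 bases apart) and COL4A5 and COL4A6 (379 bases apart) have the same arrangement, and the 250 bases before COL4A3 and COL4A5 stand for them. Each sequence runs 5′ to 3′ on the strand named, and capitals mark the TATA box core TATAAA, the CCAAT box and the GC box core GGGCGG on either strand.
COL4A1/COL4A2 interval, chr13:110307158-110307283, plus strand: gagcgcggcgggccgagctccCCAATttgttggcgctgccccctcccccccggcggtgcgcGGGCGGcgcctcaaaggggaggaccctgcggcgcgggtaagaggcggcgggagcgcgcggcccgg
COL4A3, chr2:227164374-227164623, plus strand: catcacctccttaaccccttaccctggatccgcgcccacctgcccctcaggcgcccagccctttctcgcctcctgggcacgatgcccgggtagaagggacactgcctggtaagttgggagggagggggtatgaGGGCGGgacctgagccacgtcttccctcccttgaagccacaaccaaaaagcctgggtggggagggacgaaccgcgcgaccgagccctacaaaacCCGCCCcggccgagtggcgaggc
COL4A5, chrX:108439588-108439837, plus strand: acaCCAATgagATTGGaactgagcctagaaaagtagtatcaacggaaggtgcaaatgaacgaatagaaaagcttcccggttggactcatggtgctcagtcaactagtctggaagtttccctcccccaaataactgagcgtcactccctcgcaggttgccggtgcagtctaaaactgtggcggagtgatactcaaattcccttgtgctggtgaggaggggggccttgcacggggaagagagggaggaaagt
COL6A3, chr2:237414165-237414414, minus strand: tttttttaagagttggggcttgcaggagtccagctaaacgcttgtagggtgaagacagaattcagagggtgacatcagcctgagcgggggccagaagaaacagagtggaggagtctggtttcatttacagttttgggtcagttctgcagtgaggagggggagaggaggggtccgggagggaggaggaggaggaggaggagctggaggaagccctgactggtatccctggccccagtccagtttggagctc
COL12A1, chr6:75206054-75206303, minus strand: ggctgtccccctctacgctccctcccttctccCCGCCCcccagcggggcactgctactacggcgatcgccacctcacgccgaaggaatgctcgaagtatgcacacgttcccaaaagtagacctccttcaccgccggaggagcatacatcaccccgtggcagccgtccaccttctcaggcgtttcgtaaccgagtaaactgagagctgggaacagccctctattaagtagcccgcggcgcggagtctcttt
COL6A6, chr3:130516927-130517176, plus strand: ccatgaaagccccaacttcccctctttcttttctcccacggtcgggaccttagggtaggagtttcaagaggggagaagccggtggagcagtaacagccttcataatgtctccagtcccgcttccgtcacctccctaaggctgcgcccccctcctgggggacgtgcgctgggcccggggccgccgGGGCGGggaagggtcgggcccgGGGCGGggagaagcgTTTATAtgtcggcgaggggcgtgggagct
COL13A1, chr10:69801656-69801905, plus strand: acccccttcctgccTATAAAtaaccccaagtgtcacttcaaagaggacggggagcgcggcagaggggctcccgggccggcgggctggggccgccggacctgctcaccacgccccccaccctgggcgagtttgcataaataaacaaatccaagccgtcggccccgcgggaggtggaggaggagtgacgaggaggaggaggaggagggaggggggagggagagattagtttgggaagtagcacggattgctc

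The arrays had near-equal medians, between 7.83 and 7.86 on the log2 intensity scale in which all values are given. FBP1 itself, which checks the labels, read 9.83 (control) and 13.07 (FBP1) in MDA-MB231, and 6.35 (control) and 13.35 (FBP1) in Hs578T. Of the 5 basal-like markers measured, VIM, EGFR and KRT14 exceeded the reference level described next on all 4 arrays and KRT5 on none. CDH3, the fifth, exceeded it only in MDA-MB231 (8.18 and 7.93, against 6.94 and 7.17 in Hs578T) and was called higher there by 0.99 (limma adjusted p = 0.00283). The number of arrays limits the precision of every value, and no depth applies to an array.

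The deposited values carry no detection call, so the 341 olfactory receptor genes, which breast cells are not known to use, served as a reference for dim signal. Their 95th percentile was 7.04 in the MDA-MB231 control, 7.15 with FBP1, 7.23 in the Hs578T control and 7.34 with FBP1. Of the collagen genes, 27 exceeded this reference on all 4 arrays, as did 67.7% of all genes, and 12 exceeded it on none, as did 23.2% of all genes. The 12 were COL4A3, COL4A4, COL4A6, COL6A5, COL9A1, COL10A1, COL11A1, COL19A1, COL21A1, COL24A1, COL25A1 and COL28A1. They include chains of kidney and sensory basement membranes, and some chains typical of cartilage, namely COL9A1, COL10A1 and COL11A1. Other cartilage chains, COL2A1, COL9A2, COL9A3 and COL11A2, exceeded the reference on all 4 arrays. COL14A1 and COL5A2 exceeded it on both Hs578T arrays and on neither MDA-MB231 array, COL6A6 only on the Hs578T FBP1 array, and COL4A5 on the Hs578T arrays and the MDA-MB231 control. Differences of genes near or below the reference are compressed and their sizes are uncertain.

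The first comparison asked how the collagen genes differed between the lines. In Hs578T, COL1A2 was 21.7-fold, COL6A3 11.9-fold, COL1A1 11-fold, COL3A1 10.7-fold, COL5A2 7.52-fold, COL4A1 6.43-fold and COL14A1 4.51-fold higher. In the limma fit over the 4 arrays (cell line and construct as terms, Benjamini-Hochberg adjustment over all 18417 genes), 14 of 43 collagen genes were called higher in Hs578T and 1 was called higher in MDA-MB231. Of all genes, 16.9% were called higher in Hs578T and 19% higher in MDA-MB231, 36% in all, so the collagen share in both directions together (34.9%) lay near the background while its direction was one-sided (32.6% and 2.33%). The 7 genes named above were called and at least 4-fold higher in Hs578T, against 1.67% of all genes, and 0 collagen genes were so in MDA-MB231, against 1.5%. The median line difference, Hs578T minus MDA-MB231, was 0.22 over the collagen genes and 0.03 over all genes. In bulk RNA, fewer cells that use a gene and less RNA per cell cannot be told apart. Each line has 1 control and 1 FBP1 array. The error behind these p-values is the disagreement of the line difference between constructs, combined with a prior over all genes. It holds no spread over repeated cultures. Fits that leave out 1 array, given below, have the line as the only term. Their error comes from the difference between the FBP1 and control arrays of the line that keeps both, with the prior. A call lost in such a fit can reflect that difference or the changed model, beside the array left out.

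**Figure D1:**
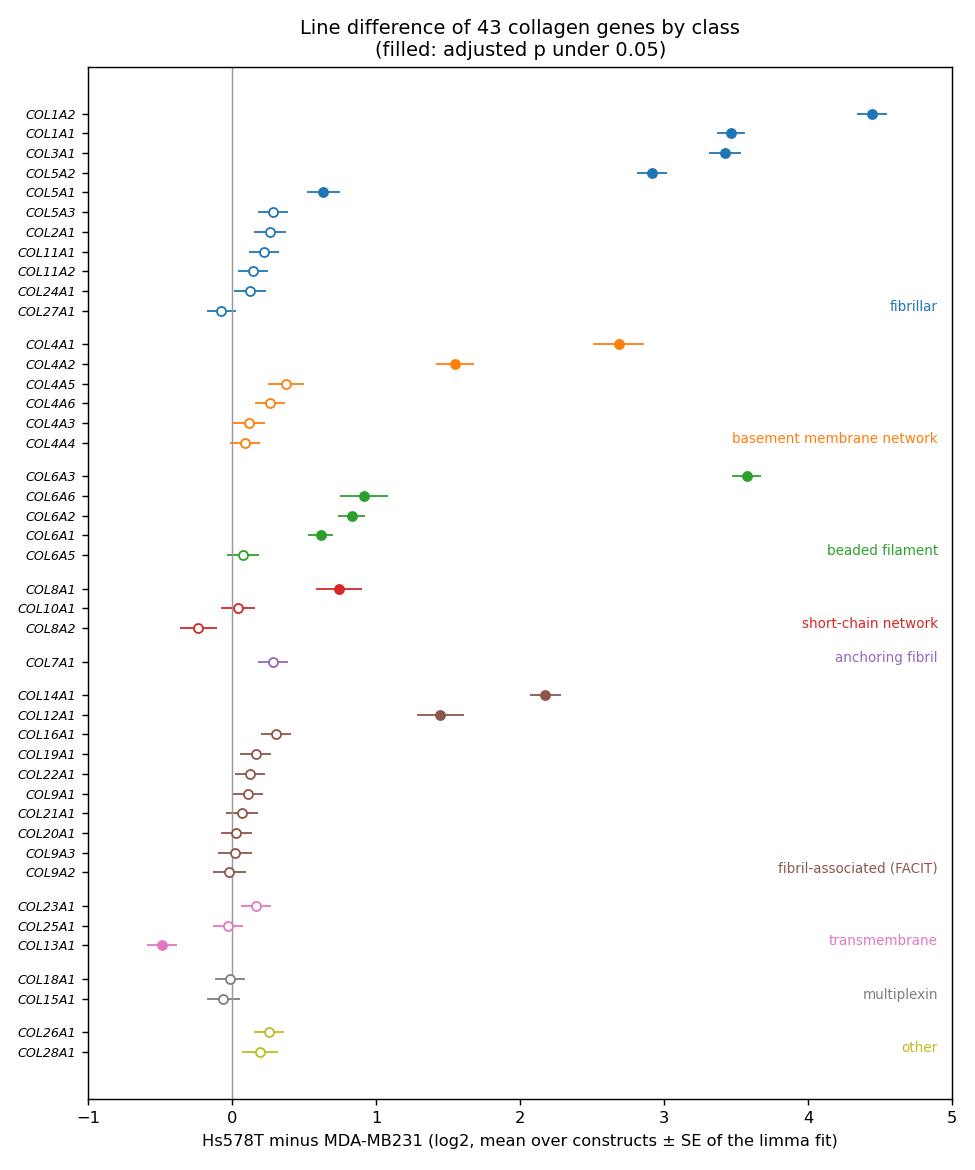
Line difference of the 43 collagen genes, Hs578T minus MDA-MB231 on the log2 scale, as the mean over constructs with the standard error of the limma fit, grouped by collagen class; filled points have an adjusted p under 0.05. The fibrillar, basement membrane, beaded filament and FACIT classes each hold genes far to the right (up to 4.44), and COL13A1 is the one filled point to the left of 0.

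Type I collagen, the main fibrillar collagen of skin, bone and tumour stroma, had both chains high in Hs578T. Values are given as the control and then the FBP1 array of each line. COL1A1 was 8.77 and 8.72 in MDA-MB231, and 12.19 and 12.23 in Hs578T. COL1A2 was 7.62 and 7.49 in MDA-MB231, and 12.13 and 11.86 in Hs578T. For both chains the Hs578T arrays lay more than 3 log2 units above the MDA-MB231 arrays, without overlap. The line differences were 3.47 with a standard error of 0.10 (limma adjusted p = 6.12e-06) for COL1A1 and 4.44 with a standard error of 0.10 (limma adjusted p = 4.5e-06) for COL1A2. A further probe set annotated to both PNLIP and COL1A2, which the choice of 1-gene probe sets leaves out, read 4.74 to 4.94 on the 4 arrays.

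Type III and type V chains, which co-assemble with type I into fibrils, followed in part. COL3A1 was 7.96 and 7.72 in MDA-MB231 and 11.27 and 11.25 in Hs578T, a difference of 3.42 with a standard error of 0.11 (limma adjusted p = 8.88e-06). COL5A2, the neighbour of COL3A1 on chromosome 2, was 6.75 and 6.56 in MDA-MB231 and 9.61 and 9.51 in Hs578T. Its difference was 2.91 with a standard error of 0.10 (limma adjusted p = 1.32e-05). These neighbouring genes thus both stood several log2 units higher in Hs578T, with COL5A2 below the reference in MDA-MB231. The other type V chains differed less. COL5A1 was 8.80 and 8.85 in MDA-MB231 and 9.56 and 9.34 in Hs578T, a difference of 0.63 (standard error 0.12, limma adjusted p = 0.00757), and was not called without either MDA-MB231 array (0.61 and 0.66, adjusted p = 0.0665 and 0.0521). COL5A3 read 8.12 and 8.07 in MDA-MB231 and 8.35 and 8.40 in Hs578T, and its difference of 0.28 (standard error 0.11) was not called (limma adjusted p = 0.088).

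The cartilage fibrillar chains were not called. COL2A1 differed by 0.26 (limma adjusted p = 0.127), COL11A1 by 0.22 (0.164) and COL11A2 by 0.14 (0.344). COL11A2 has 3 probe sets, of which the brightest gave that value, and the other pair, with identical values, lay the other way, with 7.48 and 7.31 in MDA-MB231 and 7.30 and 6.95 in Hs578T. COL24A1 (0.12) and COL27A1 (-0.08), fibrillar chains of developing cartilage and bone, had limma adjusted p of 0.446 and 0.624. Of the 11 fibrillar genes, 5 were thus called higher in Hs578T (45.5%, beside 16.9% of all genes), all of them chains of types I, III and V.

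**Figure D2:**
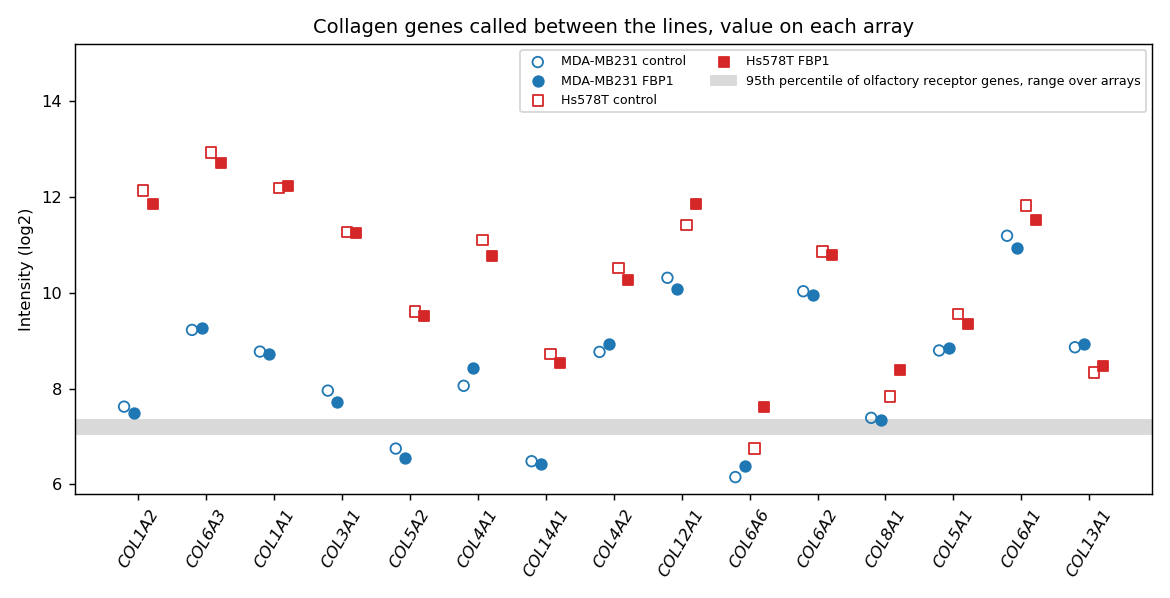
Log2 intensity on each of the 4 arrays of the 15 collagen genes called between the lines, ordered by line difference, with open symbols for control and filled symbols for FBP1 arrays; the grey band is the range over arrays of the 95th percentile of olfactory receptor genes. The Hs578T squares lie above the MDA-MB231 circles for 14 genes and below them for COL13A1, and COL6A6 lies above the band only on the Hs578T FBP1 array.

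In the type IV family, which builds basement membranes, the ubiquitous pair differed and the tissue-restricted pairs did not pass the test. COL4A1 was 8.06 and 8.44 in MDA-MB231 and 11.10 and 10.77 in Hs578T. COL4A2, whose product joins that of COL4A1 in one trimer and whose start lies 126 bases away across the printed interval, was 8.77 and 8.93 in MDA-MB231 and 10.52 and 10.27 in Hs578T. Both were higher on each Hs578T array, COL4A1 by 2.68 (standard error 0.18, limma adjusted p = 0.000134) and COL4A2 by 1.55 (standard error 0.13, limma adjusted p = 0.000362). The pair COL4A3 and COL4A4 differed by 0.12 (limma adjusted p = 0.474) and 0.09 (0.577), and the pair COL4A6 and COL4A5 by 0.26 (0.11) and 0.37 (0.0635). COL4A5 was 7.08 and 7.07 in MDA-MB231 and 7.28 and 7.61 in Hs578T, and it was called without the Hs578T control array (0.54, adjusted p = 0.011).

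The beaded filament collagen of type VI was higher in Hs578T for each of its classical chains, with unequal sizes. COL6A3, whose product joins those of COL6A1 and COL6A2 in one trimer, was 9.23 and 9.27 in MDA-MB231 and 12.93 and 12.71 in Hs578T. COL6A1 was 11.19 and 10.93 in MDA-MB231 and 11.82 and 11.53 in Hs578T. COL6A2, its neighbour on chromosome 21, was 10.03 and 9.95 in MDA-MB231 and 10.86 and 10.79 in Hs578T. The lines did not overlap for any of these chains, but the difference was 3.57 (standard error 0.10, limma adjusted p = 6.59e-06) for COL6A3 against 0.61 (standard error 0.08, 0.00252) for COL6A1 and 0.83 (standard error 0.09, 0.00119) for COL6A2. COL6A1 was not called without the MDA-MB231 FBP1 array (0.48, adjusted p = 0.108). Of the alternative chains encoded side by side on chromosome 3, COL6A5 was dim throughout (4.87 to 5.06). COL6A6 was 6.15 and 6.39 in MDA-MB231 and 6.75 and 7.62 in Hs578T, a difference of 0.92 (standard error 0.17, limma adjusted p = 0.00717), and was not called without either MDA-MB231 array (0.80 and 1.03, adjusted p = 0.209 and 0.12). Without the Hs578T FBP1 array the COL6A6 difference was 0.48, and without the Hs578T control 1.35.

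Among the 10 FACIT genes, 2 were called, both higher in Hs578T and both encoding chains that coat type I fibrils, a share (20%) near the 16.9% of all genes called in that direction. COL14A1 was 6.48 and 6.43 in MDA-MB231 and 8.73 and 8.53 in Hs578T, a difference of 2.17 (standard error 0.11, limma adjusted p = 4.3e-05). COL12A1 was 10.32 and 10.08 in MDA-MB231 and 11.42 and 11.86 in Hs578T, a difference of 1.44 (standard error 0.16, limma adjusted p = 0.00115). Both were separated on every array, COL14A1 from below the reference in MDA-MB231 and COL12A1 from a bright signal in both lines. The other 8 differed by -0.02 (COL9A2) to 0.30 (COL16A1), and the latter, a FACIT that accompanies several fibril types, passed when the construct term was left out (adjusted p = 0.0473). The type IX chains, which coat cartilage fibrils, gave 0.11 (COL9A1), -0.02 (COL9A2) and 0.02 (COL9A3).

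Short-chain type VIII, a network collagen of vessel walls and Descemet's membrane, was split. COL8A1 was 7.39 and 7.34 in MDA-MB231 and 7.83 and 8.38 in Hs578T, higher by 0.74 (standard error 0.16, limma adjusted p = 0.0135), and was not called without either MDA-MB231 array (0.76 and 0.72, adjusted p = 0.108 and 0.121). Without the Hs578T FBP1 array the COL8A1 difference was 0.47, and without the Hs578T control 1.01. Its partner COL8A2 was 8.43 and 8.78 in MDA-MB231 and 8.38 and 8.36 in Hs578T (difference -0.24, standard error 0.13, adjusted p = 0.212). COL8A2 thus lay on the other side of 0 without passing the test. COL10A1, the hypertrophic cartilage chain, gave 0.04.

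COL13A1, a transmembrane collagen of adhesion sites and the neuromuscular junction, was the one member called higher in MDA-MB231. It was 8.86 and 8.94 in MDA-MB231 and 8.34 and 8.48 in Hs578T, so the arrays of the lines did not overlap. The difference was 0.49 in favour of MDA-MB231, or 1.41-fold (standard error 0.10, limma adjusted p = 0.0128), and was lost without either MDA-MB231 array (adjusted p = 0.0743 and 0.104). The other transmembrane genes COL23A1 (0.17) and COL25A1 (-0.03) were not called. Neither were COL7A1 (0.28, limma adjusted p = 0.0854), which anchors the epidermis, nor the multiplexins COL15A1 (-0.06) and COL18A1 (-0.02), the latter the source of endostatin, nor COL26A1 (0.26) and COL28A1 (0.19). COL18A1 was bright and level, with 9.36 and 9.25 in MDA-MB231 and 9.31 and 9.27 in Hs578T, and COL18A1-AS1 read 6.48 to 6.72.

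Without regard to size, both Hs578T arrays lay above both MDA-MB231 arrays for 30 of 43 collagen genes, against 36.5% of all genes, and below them for 3 (COL13A1, COL8A2 and COL27A1), against 33%. The other 10 overlapped. Of the 12 genes below the reference everywhere, 7 had both Hs578T arrays above, although their differences were only -0.03 to 0.26 and 0 were called. The reference itself was higher in Hs578T (7.23 and 7.34) than in MDA-MB231 (7.04 and 7.15), and its part in these small differences was not tested. Across the 43 genes the line difference in control arrays and that in FBP1 arrays had a Pearson correlation of 0.976, a description over genes that share 4 arrays.

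Members that co-assemble differed from each other in the size of the line difference. The range within a set was 0.98 for COL1A1 and COL1A2, 1.14 for COL4A1 and COL4A2, 2.63 for the type V chains and 2.96 for the classical type VI chains. It was 0.98 for COL8A1 and COL8A2, which lay on opposite sides of 0. It was 0.03 for COL4A3 and COL4A4, 0.11 for COL4A5 and COL4A6, 0.08 for the type XI chains and 0.13 for the type IX chains. No chain of these last sets was called. Among them COL4A3, COL4A4, COL4A6, COL9A1 and COL11A1 were below the reference on all arrays, where differences are compressed. The type XI range takes the brightest COL11A2 probe set, and the other COL11A2 probe sets lay the other way. In the 250 bases before the start, GGGCGG, the core of the GC box, occurred on either strand in 21 of 31 collagen genes with an entry, against 46.2% of 27305 genes. It was present in 6 of the 7 called higher in Hs578T and in 15 of the other 24. COL4A1 and COL4A2 are both among the 7 and share the GGGCGG of the printed interval, so their windows are not independent. COL1A1, COL1A2, COL3A1, COL5A2 and COL14A1, all called at least 4-fold higher in Hs578T, have no entry. GC content moved with the GGGCGG counts, with a median of 65.6% over the 31 collagen genes and 58% over all. The median was 74% in the 7 and 64.6% in the other 24, and the part of GC content in the counts was not tested. A motif was counted when any entry of a gene held it, while GC content was taken from the first entry. CCAAT occurred in 10 of 31 (37% of all) and TATAAA in 6 of 31 (13% of all). The motifs do not overlap in their letters, and a match describes the window and is not a shown binding site. Among the printed stretches, COL6A3 holds none of the 3 motifs, the COL4A1/COL4A2 interval holds 1 CCAAT and 1 GGGCGG, and COL4A5 holds 2 CCAAT and no GGGCGG.

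The second comparison asked how the collagen genes differed between FBP1 and control cells. The differences were small. In MDA-MB231, 0 of 43 genes were at least 1.5-fold higher (0.353% of all genes were) and 0 lay below control by as much (0.337%). In Hs578T, 1 gene, COL6A6, was at least 1.5-fold higher (1.4% of all genes) and 0 genes lay below control by that fold (1.57%). Each line has 1 array per group, so these are sizes with no test. Median changes over the collagen genes were -0.02 in MDA-MB231 and 0.05 in Hs578T, beside -0.0039 and 0.03 over all genes. The limma fit over both lines called 0 of 43 (0% of all 18417 genes), and at an unadjusted p under 0.05 gave COL6A1 and COL6A6, where 5.25% of all genes passed. FBP1 itself was not called in that fit (adjusted p = 0.936), so 0 calls do not show that no collagen gene changed.

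COL6A6, the largest difference in either line, was 1.83-fold higher with FBP1 in Hs578T (6.75 to 7.62) and 1.18-fold higher in MDA-MB231 (6.15 to 6.39). Only the Hs578T FBP1 value exceeded the reference, by its 95th percentile (7.34) but not by its 99th (7.93). COL8A1 came next in Hs578T at 1.46-fold (7.83 to 8.38), with 0.97-fold in MDA-MB231, and COL12A1 was 1.35-fold higher in Hs578T (11.42 to 11.86) and 0.85-fold in MDA-MB231. COL4A5 stood at 0.33 in Hs578T and -0.01 in MDA-MB231. In MDA-MB231 the highest values were 0.38 for COL4A1, 0.37 for COL28A1 and 0.35 for COL8A2, and the lowest were -0.26 for COL6A1, -0.24 for COL12A1 and -0.24 for COL3A1. COL28A1 lay below the reference on all arrays.

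The basement membrane pair COL4A1 and COL4A2 had differences of one sign within a line and of opposite signs between the lines. The differences in MDA-MB231 were 0.38 and 0.16, and in Hs578T -0.33 and -0.25. As 1 array stands for each group, the difference between the lines could not be tested. For comparison, 90% of all genes lay between -0.26 and 0.26 in MDA-MB231 and between -0.36 and 0.36 in Hs578T, and of the 4 values of this pair only that of COL4A1 in MDA-MB231 was outside the range.

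COL6A1 was lower with FBP1 by a like amount in both lines, with differences of -0.26 and -0.29. Its mean change was -0.28 (standard error 0.09, unadjusted p = 0.0166, limma adjusted p = 0.936). Its partner COL6A2 was at -0.08 and -0.07, and COL6A3 at 0.04 and -0.23. Of the type I and III genes, COL1A1 was at -0.06 and 0.04, COL1A2 at -0.13 and -0.27 (limma unadjusted p = 0.0988) and COL3A1 at -0.24 and -0.02. The line difference of type I collagen thus stood in the control and in the FBP1 arrays, at 3.41 and 3.52 for COL1A1 and 4.51 and 4.37 for COL1A2. The control arrays differed in FBP1 signal, with 9.83 in MDA-MB231 and 6.35 in Hs578T.

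**Figure D3:**
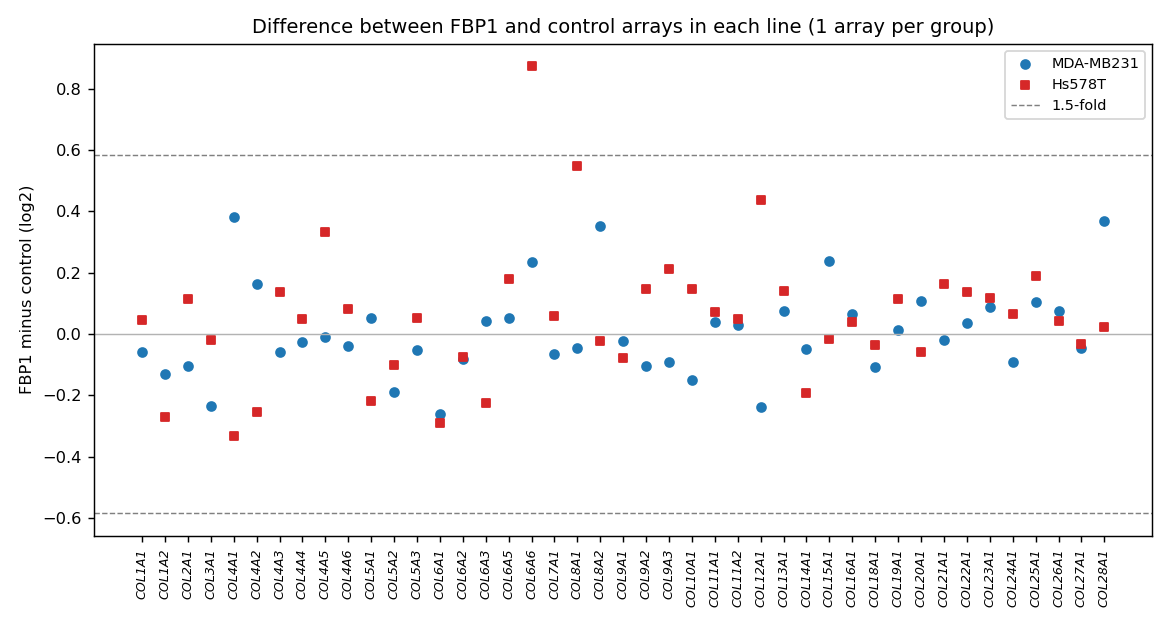
Difference between the FBP1 and the control array (log2) of each of the 43 collagen genes in MDA-MB231 (circles) and Hs578T (squares), with dashed lines at 1.5-fold. One point, COL6A6 in Hs578T, lies beyond the lines, and COL8A1 in Hs578T lies just inside them.

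The differences had the same sign in both lines for 21 of 43 genes (51.2% of all genes), and 9 were below 0 in both (23.3% of all). Over the 43 genes the changes in the lines had a Pearson correlation of -0.0102 and, without COL6A6, of -0.189. Of the 14 genes called higher in Hs578T, 10 were below control with FBP1 in Hs578T (71.4%, median -0.15), beside 59.4% (median -0.05) of all 3118 genes called higher there. Of the 28 genes not called between the lines, 6 were below control in Hs578T (21.4%, median 0.07), beside 40.3% of all such genes. The call and the change use the same arrays. Among the 12 genes below the reference on every array, 1 was below control in Hs578T (8.33%, median 0.10), beside 37.1% (median 0.06) of all 4276 such genes. The reference itself was 7.23 in the Hs578T control and 7.34 with FBP1. The part of dim signal in those changes was not tested.

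Genes that make, process, bind and degrade collagen were then read from the same fit, in lists of 6 to 21 measured genes. Each list count stands beside the 16.9% of all genes called higher in Hs578T and the 19% called higher in MDA-MB231. Of 20 genes for chain modification and folding, 14 were called higher in Hs578T (70%) and 0 higher in MDA-MB231, with a median difference of 0.72. FKBP10, a folding isomerase needed for crosslink hydroxylation, was 7.59 and 8.16 in MDA-MB231 and 12.38 and 12.13 in Hs578T (4.38, limma adjusted p = 2.86e-05). FKBP14 followed at 1.64, the collagen chaperone SERPINH1 (HSP47) at 1.499 and the prolyl 3-hydroxylase P3H2 at 1.35. Not called were PPIB at 0.17 (limma adjusted p = 0.0658), HSPA5 at 0.20 (0.0522) and CREB3L1 at 0.13 (0.498). The other uncalled members were P4HA1 at 0.03 (limma adjusted p = 0.883), CRTAP at 0.03 (0.834) and TMEM38B at -0.28 (0.253). P4HB was called with a difference of 0.22 (limma adjusted p = 0.0398). In Hs578T 17 of the 20 were below control with FBP1 (median -0.16), beside 44.1% of all genes and 59.4% of all genes called higher there. The lowest was TMEM38B (-0.54), followed by the prolyl 4-hydroxylase genes P4HA1 (-0.50) and P4HA2 (-0.48), while P4HA3 was at -0.15. In this list 0 genes reached 1.5-fold. In MDA-MB231 10 of the 20 were above control.

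Of 12 procollagen export genes, 3 were called higher in Hs578T and 1 in MDA-MB231, in all 33.3%, near the 36% of all genes called either way. The coat component SEC24D (1.31), the coat GTPase SAR1B (1.16) and the cargo receptor MIA3 (0.47) were higher in Hs578T, and the MIA3 relative MIA2 was higher in MDA-MB231 by 0.52. Of 10 genes for propeptide removal, 6 were called, all higher in Hs578T (60%). TLL1, among the 6, was below the reference on all arrays. The enhancer of C-propeptide cleavage PCOLCE was 8.81 and 8.61 in MDA-MB231 and 12.33 and 12.07 in Hs578T (3.49), ADAMTS2, an N-proteinase, differed by 2.18, ADAMTS3 by 1.83 and the C-proteinase BMP1 by 1.64. ADAMTS2 was also lower with FBP1, 10.47 to 9.67 in Hs578T (-0.80) and 8.0 to 7.78 in MDA-MB231 (-0.21), with a limma adjusted p of 0.936 over both lines.

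Each of the 6 crosslinking genes was called, 4 higher in Hs578T (66.7%) and 2 in MDA-MB231 (33.3%). LOXL3 (3.82), LOX (2.60), LOXL2 (1.42) and LOXL1 (1.17) were higher in Hs578T. The transglutaminase gene TGM2 was higher in MDA-MB231 by 2.89 and LOXL4 by 1.65. With FBP1, TGM2 was 9.93 to 10.63 in Hs578T (0.70) and 13.12 to 13.22 in MDA-MB231. The list is thus divided between 4 lysyl oxidase genes high in Hs578T and the pair TGM2 and LOXL4 high in MDA-MB231.

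Of 12 collagen receptor genes, 4 were called higher in Hs578T (33.3%) and 3 in MDA-MB231 (25%). The integrin chain ITGA11, a receptor for type I collagen, was 6.99 and 6.94 in MDA-MB231 and 12.48 and 12.12 in Hs578T (5.33), and DDR2, the fibrillar collagen receptor kinase, 7.11 and 6.99 against 12.18 and 12.13 (5.11). ITGA11 was below the reference on both MDA-MB231 arrays and DDR2 on the MDA-MB231 FBP1 array, so these sizes are uncertain. The endocytic receptor MRC2 (1.72) and ITGA2 (0.33) were also higher in Hs578T. Higher in MDA-MB231 were ADGRG1 (by 1.16), a receptor for type III collagen, LAIR1 (by 1.04) and DDR1 (by 0.38), the epithelial member of the discoidin receptors. LAIR1 was below the reference on the Hs578T control array. ADGRG1 was the receptor with the largest FBP1 difference, 8.92 to 10.01 in Hs578T (1.09) and 10.64 to 10.60 in MDA-MB231.

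In the degradation list, 5 of 15 were called higher in Hs578T (33.3%) and 3 in MDA-MB231 (20%). The gelatinase gene MMP2 (5.43), MMP16 (2.18), the lysosomal protease CTSB (0.98) and the collagenase MMP13 (0.83) were higher in Hs578T, and the collagenases MMP1 (by 1.63), MMP14 (by 0.72) and MMP8 (by 0.70) in MDA-MB231, MMP8 below the reference on all arrays. MMP2 was below the reference on the MDA-MB231 FBP1 array and MMP1 on the Hs578T control array, so their sizes are uncertain. MMP13 exceeded the reference only on the Hs578T control array. Its difference with FBP1 was -0.48 in MDA-MB231 and -0.69 in Hs578T (limma adjusted p = 0.936 over both lines).

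The largest line difference in the 8 lists was in genes of fibril-binding proteins. Of 16, 9 were called higher in Hs578T (56.2%) and 1 higher in MDA-MB231 (6.25%). POSTN (6.59), LUM (5.41), DCN (5.38) and BGN (5.07) were in favour of Hs578T and THBS2 in favour of MDA-MB231 by 3.54. FMOD and ASPN, both among the 9, were below the reference on all arrays. DCN was below it on both MDA-MB231 arrays, so its size is uncertain. With FBP1, LUM and POSTN were at -1.13 and -0.78 in MDA-MB231, where both FBP1 values (6.54 and 6.90) lay below the reference so that these sizes are uncertain. ABI3BP was at 0.78 in Hs578T. Transcription factors linked to collagen genes were divided, with 5 of 21 called higher in Hs578T (23.8%) and 9 in MDA-MB231 (42.9%). PRRX1 (3.35), FLI1 (2.63), TWIST1 (1.34) and SMAD2 (0.77) were higher in Hs578T, and the CCAAT-binding subunit NFYA (by 0.83), RUNX2 (by 0.80), SOX5 (by 0.63) and SOX9 (by 0.54) in MDA-MB231. FLI1 was below the reference on both MDA-MB231 arrays and SOX5 on the Hs578T FBP1 array.

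**Figure D4:**
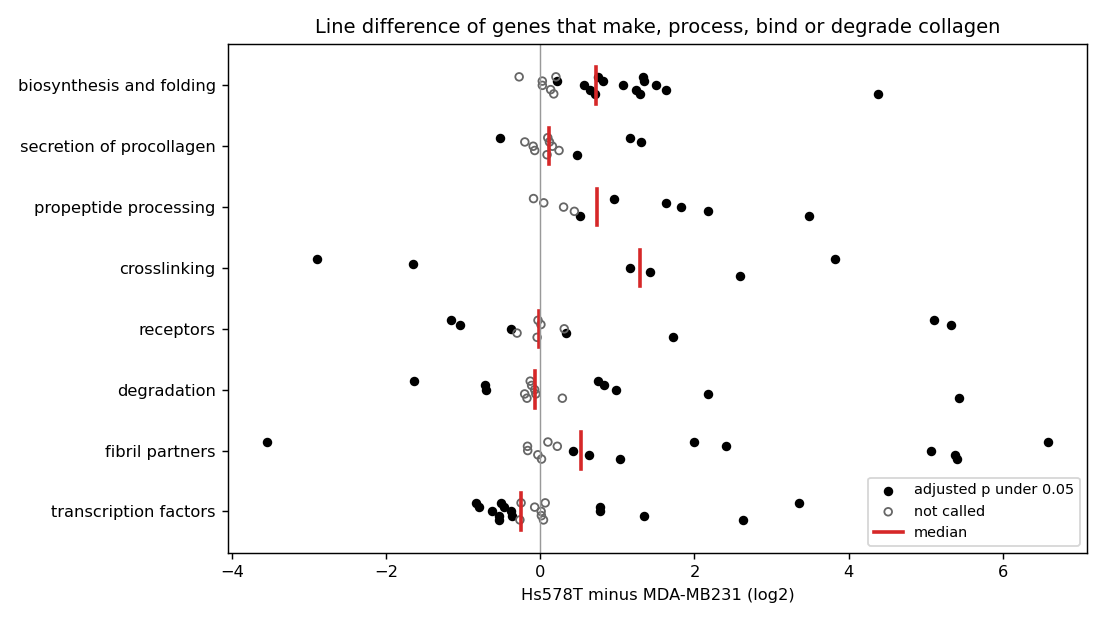
Line difference (Hs578T minus MDA-MB231, log2) of each measured gene in 8 lists of collagen-related genes; filled points have a limma adjusted p under 0.05 and red bars are list medians. The folding, propeptide and crosslinking medians lie at 0.72, 0.73 and 1.29, while those of receptors and degradation lie near 0.

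Markers of cell types were read in the same way. Of 9 fibroblast markers, 7 were called higher in Hs578T (77.8%) and 1, PDPN, higher in MDA-MB231 (11.1%). The summed linear intensity of the 9 was 1876 to 2079 in MDA-MB231 and 30145 to 30500 in Hs578T. LUM, DCN and POSTN, all among the 7, also belong to the fibril-binding list above, so the counts are not independent. No marker is listed at 0, and TCF21 was below the reference on all arrays. FAP, also among the 7, exceeded it only on the Hs578T control array (8.01) and read 6.67 with FBP1 in Hs578T (-1.34). Of 9 luminal markers, 5 were called higher in MDA-MB231 (55.6%), among them KRT19, KRT8 and EPCAM, and 1, PGR, higher in Hs578T (11.1%). PGR was below the reference on all arrays. The luminal sums were 20674 to 21695 in MDA-MB231 and 7115 to 8888 in Hs578T. Of 6 endothelial markers 0 were called higher in Hs578T and 2 higher in MDA-MB231 (33.3%), PECAM1 by 1.61 (limma adjusted p = 0.000162) and KDR by 0.47 (0.0181), with sums of 1083 to 1144 in MDA-MB231 and 829 to 879 in Hs578T. CDH5, VWF and TEK were below the reference on all arrays. Of 6 leukocyte markers 0 were called higher in Hs578T and 2 higher in MDA-MB231, with sums of 12555 to 12793 in MDA-MB231 and 2456 to 2764 in Hs578T. LAPTM5 was 13.25 and 13.15 in MDA-MB231 and 6.69 and 6.77 in Hs578T, higher in MDA-MB231 by 6.47 (limma adjusted p = 4e-06), and CD14 was higher there by 0.72 (0.00608). PTPRC, CD3E and MS4A1 were below the reference on all arrays. The part of these marker differences in the collagen results was not tested.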

How the data were processed

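RNA of 4 groups (line and construct, from the labels) was measured on 1 array each. The authors deposited log2 intensities per probe set; the log2 scale is inferred from the range. Affymetrix Expression Console 1.1.2800.28061 is named in the submitters' processing notes, with the array normalization not given in the sources used here. In the platform annotation, 19460 of 33297 probe sets have a single gene, 1754 have several genes and 12083 have none. The main fit used only those with a single gene. The brightest probe set of a gene by mean over the 4 arrays was taken, with no intensity filter. limma 3.58.1 in R 4.3.3 fitted cell line and construct over 18417 genes with an intensity trend, leaving 1 residual degree of freedom beside a prior of 5.09. Genes were called at a Benjamini-Hochberg adjusted p under 0.05. Within a line, log2 differences were counted at 1.5-fold with no test. The members and lists were chosen with earlier results of these data known. Named were members of co-assembling sets, the 10 largest called differences each way, members past 1.5-fold with FBP1 and, per list, the 4 largest called differences each way and genes past 1.5-fold. Alternatives covered probe set choice, the dim filter, quantile normalization, centring, the trend, probe sets without a single gene, the construct or line term, thresholds and leaving out arrays.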

Additional observations from a re-analysis of the deposited data

How the results depend on the processing

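Averaged probe sets, the dim filter, quantile normalization, median centring, no intensity trend and a fit over all probe sets each gave 14 collagen genes called higher in Hs578T and 1 higher in MDA-MB231, as reported, and the fit without the construct term gave 15 and 1; 0 genes changed sign among those called. Called and at least 4-fold, 7 were higher in Hs578T and 0 in MDA-MB231. Leaving out each array in turn with the line as the only term gave 10 to 15 higher in Hs578T and 0 to 1 in MDA-MB231; the lone array of a line is then assumed to vary like the other pair. COL1A1, COL1A2, COL3A1, COL4A1, COL4A2, COL5A2, COL6A2, COL6A3, COL12A1 and COL14A1 passed in all 12 fits. At 2-fold in place of 1.5-fold, 0 collagen genes were higher with FBP1 in Hs578T. The fit over both lines called 0 collagen genes under every alternative run. In its main setting it called 0 of all 18417 genes, FBP1 included, so these counts do not show that no collagen gene changed. Signal near the level of dim genes limits the 12 members below the reference.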
